A study of Mus musculus with 6 samples.

Results

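The genes described here encode receptors that set how strongly an activated T cell responds to antigen: the CD28 family (Cd28, Ctla4, Icos, Pdcd1 and Btla), the checkpoint receptors Lag3, Havcr2 (TIM-3) and Tigit, and the paired surface receptors Cd5 and Cd6. They were chosen by symbol, as every probe set that the annotation of this Affymetrix mouse array assigns to exactly 1 of these 10 genes. The rule found 12 probe sets of 9 genes, among 45101 probe sets and 18193 named genes on the array, with 2 for Cd28, 3 for Icos and 1 for each other gene found. Tigit had no probe set of its own and was not analysed here. Havcr2 lay under the level at which genes were tested, a mean log2 signal of 1.27, so 8 of the 10 genes were tested, on 11 probe sets.

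The 6 samples were P14 cytotoxic T cells grown from spleens of C57Bl/6 mice, which carry a transgenic receptor for gp33, a peptide of a viral glycoprotein. All cells had been stimulated for 24 h with that peptide and then exposed to a retrovirus that encodes GFP fused to a phosphorylation-deficient mutant of HDAC7, a class IIa histone deacetylase that phosphorylation moves out of the nucleus. Sorting gave 3 GFP positive samples, which carry the mutant, and 3 GFP negative samples, the cells without GFP, labelled control, with 1 array each. Both groups were thus exposed to peptide and virus. GFP negative cells are therefore not cells with an empty vector, the sources used here do not name the promoter of the construct, and the labels call the samples of a group biological replicas without saying whether they came from separate mice or cultures, so p-values measure the spread between these samples only. The comparison asks how the HDAC7 mutant alters expression in activated cytotoxic T cells.

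T cells need a second signal beside that of the T cell receptor. CD28 supplies it on binding CD80 or CD86, and CTLA-4 competes for the same ligands and dampens the response. ICOS is a second costimulator, while PD-1 and BTLA recruit tyrosine phosphatases and LAG-3, TIM-3 and TIGIT restrain effector cells that stay in contact with antigen. CD5 and CD6 are scavenger-receptor family proteins that sit close to the T cell receptor. CD5 is known to lower its signal, and its surface level follows the strength of that signal.

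In GFP positive cells 4 of the 8 tested genes were lower and 0 were higher. Cd28 had the largest change, 2.12-fold less signal, followed by Ctla4 (1.55-fold), Cd5 (1.46-fold) and Btla (1.40-fold). Icos, Pdcd1 and Cd6 did not pass the test, with changes from -0.15 to 0.13 on the log2 scale. Lag3 was the 1 gene with a rise in every pair of samples of the same replicate number, and it passed when that number entered the fit or GFP negative 2 was left out, but not in the values as deposited without the number. Over all 13194 genes tested, 17.5% were lower and 24.6% were higher at the same threshold, an adjusted p of 0.05 from limma with Benjamini-Hochberg adjustment. After quantile normalization 2765 genes were lower and 2652 higher, and after median centring 3819 were lower and 2506 higher, against 2309 lower and 3248 higher in the values as deposited. At probe set level 5 of the 11 tested member probe sets were lower, against 13.2% of all 27022 probe sets tested. The median change of the 8 genes was -0.32 on the log2 scale, against -0.02 for all genes tested. These changes are in RNA per array, in which fewer cells of a type and less RNA per cell cannot be told apart.

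**Figure D1:**
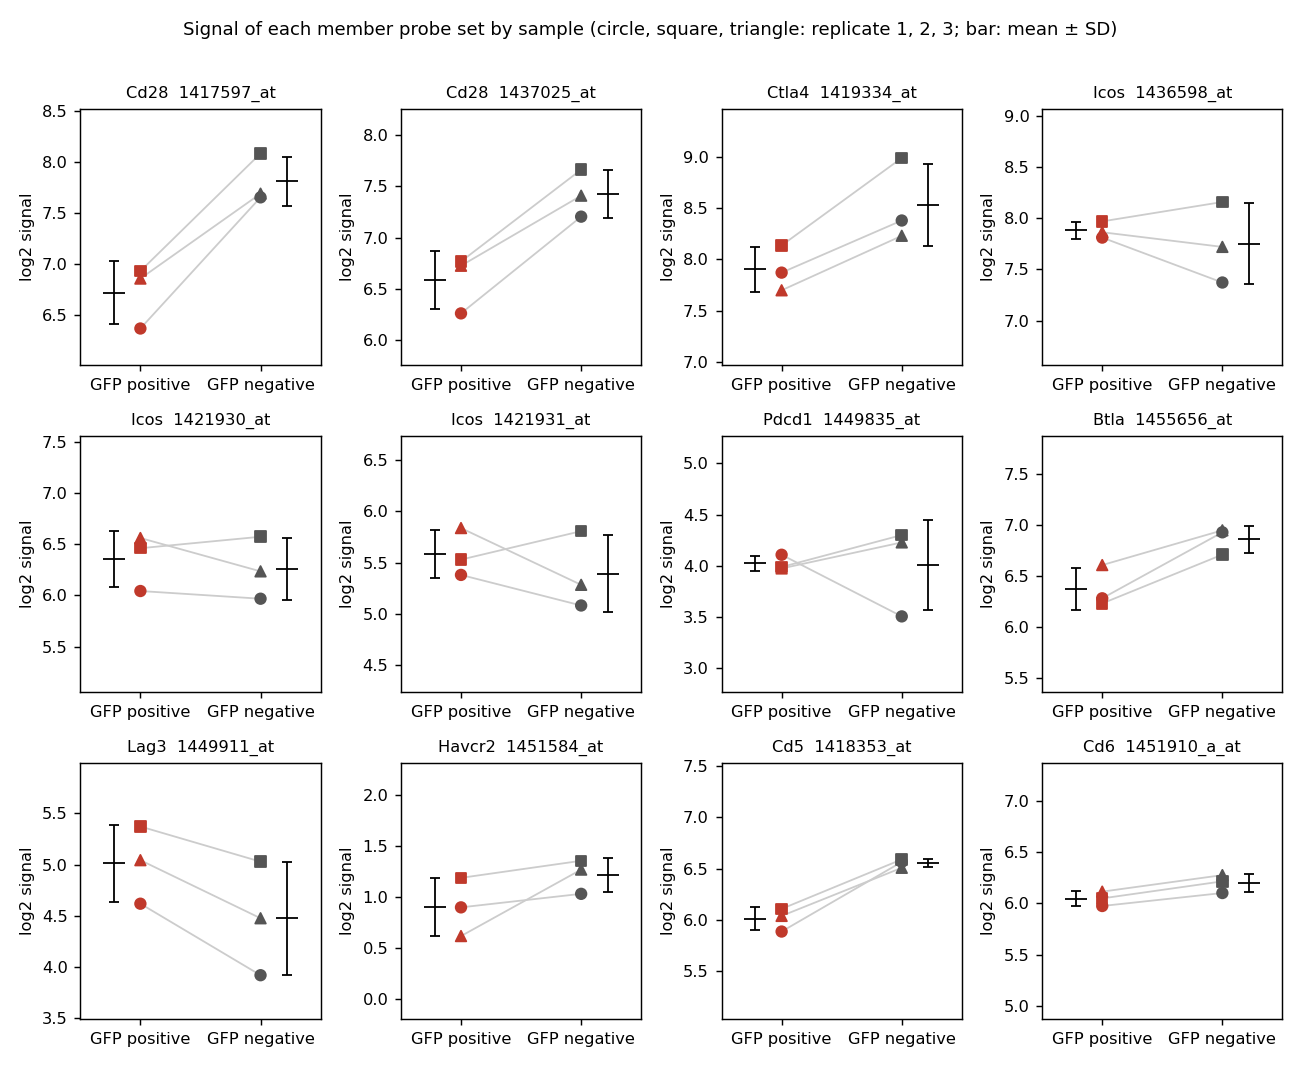
Log2 signal (y axis) of the 12 member probe sets in the 3 GFP positive (red) and 3 GFP negative (grey) samples, with symbols for the replicate number, grey lines joining samples of the same number, and black bars for mean ± SD. Every panel spans 2.5 log2 units. The groups are apart in both Cd28 panels and in those of Ctla4, Btla and Cd5, and overlap in the other 7.

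Promoter sequence is shown for Ctla4 and Cd5, which were lower, and for Pdcd1, whose groups overlapped, so that the regions upstream of genes with different behaviour can be read side by side. The sequences are from RefSeq (GRCm38.p6), of which 6 of the 10 genes had a window, and cover bases -250 to -53 from the annotated start. Of those 6, the windows of Btla and Tigit lie inside the span of the gene. That of Havcr2, a gene under the dim level, lies outside the span but is not printed. Cd28, Icos, Lag3 and Cd6 had no window. Ctla4 is at chr1:60908775-60908972 on the plus strand, Cd5 at chr19:10739027-10739224 on the minus strand and Pdcd1 at chr1:94052606-94052803 on the minus strand, each read 5′ to 3′ on the strand of the gene. Capitals mark matches, on either strand, to CANNTG (E-box), GGAAA (the core bound by NFAT), AGGAAG (ETS), TGTGGT (RUNX), TGANTCA (AP-1) or the MEF2 motif.
Ctla4: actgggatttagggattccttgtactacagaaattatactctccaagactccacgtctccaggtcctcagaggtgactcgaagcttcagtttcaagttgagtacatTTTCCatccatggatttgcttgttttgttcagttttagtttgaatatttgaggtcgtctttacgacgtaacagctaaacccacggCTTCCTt
Cd5: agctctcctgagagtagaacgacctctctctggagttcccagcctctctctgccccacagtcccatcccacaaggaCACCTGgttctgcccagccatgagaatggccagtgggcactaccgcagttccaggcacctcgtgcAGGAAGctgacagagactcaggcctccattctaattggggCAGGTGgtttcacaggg
Pdcd1: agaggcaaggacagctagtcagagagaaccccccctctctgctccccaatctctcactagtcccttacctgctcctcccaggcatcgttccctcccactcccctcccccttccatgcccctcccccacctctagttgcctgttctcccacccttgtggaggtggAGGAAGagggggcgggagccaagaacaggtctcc

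In these 198 bases Ctla4 held 1 NFAT core and 1 ETS match, Cd5 held 2 E-boxes and 1 ETS match, and Pdcd1 held 1 ETS match. None of these matches overlapped a match to another motif. MEF2 factors are the known partners of class IIa deacetylases, and the MEF2 motif had no match in the 3 printed windows. The Havcr2 window, not printed, held 1 ETS and 1 AP-1 match and no MEF2 match. Among all 32851 windows of the same length, 58.7% held an E-box, 48.3% an NFAT core, 23.7% an ETS match, 11.4% a RUNX match, 5.5% an AP-1 match and 2.4% a MEF2 match. The matches describe letters and do not show binding.

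Of the costimulatory receptors of the family, Cd28 fell and Icos was not called. Cd28, the main costimulator of naive and recently activated T cells, read 6.37, 6.93 and 6.86 in GFP positive samples, against 7.65, 8.08 and 7.69 in GFP negative samples on its brighter probe set. All GFP positive samples lay below all GFP negative ones, with a gap of 0.72 between the groups. The change was -1.09 ± 0.17 on the log2 scale (SE, n = 3 each, limma adjusted p = 0.00174), with a 95% interval from -1.49 to -0.69. The second Cd28 probe set read 6.26, 6.77 and 6.73 in GFP positive samples, against 7.20, 7.66 and 7.41 in GFP negative samples. It gave -0.84 ± 0.17 (SE, limma adjusted p = 0.00754 over probe sets), so both probe sets of the gene fell. Of all genes tested, 1.3% had a lower change than the brighter probe set, and 4.21% had a change larger in size. Cd28 remained lower in all 16 processing alternatives, with changes from -1.23 to -0.89.

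The product of Icos costimulates activated T cells. On its brightest probe set Icos read 7.81, 7.97 and 7.86 in GFP positive samples, against 7.37, 8.16 and 7.72 in GFP negative samples. The 3 GFP positive values fell within the range of the GFP negative ones. The change was 0.13 ± 0.18 (SE, limma adjusted p = 0.578), with a 95% interval from -0.28 to 0.54. The other Icos probe sets changed by 0.10 ± 0.19 and 0.19 ± 0.20 (SE), and their groups overlapped too. These intervals do not show that Icos was equal in the groups, but they exclude a fall as large as that of Cd28 on each of the 3 probe sets. In GFP negative cells the spread of Icos on the brightest probe set was 0.39 (SD), against 0.08 in GFP positive cells.

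Among the inhibitory receptors of the CD28 family, Ctla4 and Btla were lower and Pdcd1 was not called. Ctla4 read 7.87, 8.14 and 7.70 in GFP positive samples, against 8.38, 8.99 and 8.23 in GFP negative samples. The groups did not overlap, but the highest GFP positive sample was only 0.09 below the lowest GFP negative sample. The mean was 7.90 ± 0.22 in GFP positive cells and 8.53 ± 0.40 in GFP negative cells (SD, n = 3 each). The change was -0.63 ± 0.20 (SE, limma adjusted p = 0.0358), with a 95% interval from -1.09 to -0.17. With the replicate number as a block the adjusted p from limma was 0.0040. The call was lost in 7 of 16 alternatives, and GFP negative 2 had the most weight, since without it the change was -0.40 (limma adjusted p = 0.0658), a value smaller by more than 1.5 times. It was also lost without GFP positive 1 (adjusted p = 0.0761), GFP positive 3 (0.115) or GFP negative 1 (0.0559), all from limma.

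Btla, which encodes the receptor for the TNF receptor family member HVEM, read 6.28, 6.23 and 6.61 in GFP positive samples, against 6.93, 6.71 and 6.95 in GFP negative samples. The groups were apart by 0.10. The change was -0.49 ± 0.12 (SE, limma adjusted p = 0.0139), with a 95% interval from -0.77 to -0.21. Without GFP positive 2 or without GFP negative 3 the adjusted p from limma was 0.0502 and 0.0507, at changes of -0.42 and -0.44. Pdcd1, which encodes PD-1, read 4.11, 3.99 and 3.97 in GFP positive samples, against 3.51, 4.30 and 4.23 in GFP negative samples. The GFP positive values lay close together between the low GFP negative 1 and the other GFP negative samples. The change was 0.01 ± 0.20 (SE, limma adjusted p = 0.966), with a 95% interval from -0.44 to 0.46, and without GFP negative 1 it was -0.24 (limma adjusted p = 0.0908).

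Of the other checkpoint receptors only Lag3 could be tested. LAG-3 resembles CD4 in structure and binds class II molecules of the major histocompatibility complex. Lag3 read 4.62, 5.37 and 5.04 in GFP positive samples, against 3.92, 5.03 and 4.48 in GFP negative samples. The groups overlapped, since GFP negative 2 lay above GFP positive 1. Within each replicate number the GFP positive sample was higher, by 0.70, 0.34 and 0.57. The change was 0.54 ± 0.28 (SE, limma adjusted p = 0.161) without the block, with a 95% interval from -0.12 to 1.19. With the replicate number as a block it was 0.54 ± 0.09 (SE, limma adjusted p = 0.00636), where 25.5% of all genes tested were higher. Adding 32 in linear units shrinks any log2 change at a low signal such as that of Lag3, and gave 0.24. In the values as deposited and without the block, the change was 0.26 without GFP negative 1 and 0.81 without GFP negative 2 (limma adjusted p = 0.444 and 0.0391).

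Havcr2 read 0.90, 1.19 and 0.62 in GFP positive samples, against 1.03, 1.35 and 1.27 in GFP negative samples. Control probe sets that match no mouse transcript (TrpnX) reached 0.97 on these arrays, so the signal of Havcr2 was near background. The groups overlapped, and with no filter on dim genes its change was -0.32 ± 0.15 (SE, limma adjusted p = 0.151).

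Cd5 and Cd6 are adjacent protein-coding genes on chromosome 19 and encode related receptors. Cd5 read 5.89, 6.11 and 6.04 in GFP positive samples, against 6.56, 6.59 and 6.51 in GFP negative samples. The SD of the GFP negative samples was 0.04, and the gap between the groups was 0.40. The change was -0.54 ± 0.09 (SE, limma adjusted p = 0.00169), with a 95% interval from -0.74 to -0.35, and Cd5 was lower in all 16 alternatives, with changes from -0.66 to -0.38. Cd6, whose product binds the adhesion molecule ALCAM, read 5.97, 6.05 and 6.11 in GFP positive samples, against 6.10, 6.22 and 6.28 in GFP negative samples. The groups overlapped by 0.01, with GFP positive lower in all 3 replicate numbers, by 0.13, 0.17 and 0.16 in size. Its change was -0.15 ± 0.08 (SE, limma adjusted p = 0.181), with a 95% interval from -0.35 to 0.04. That call changed with the scaling of the arrays. The change was -0.27 after quantile normalization and also after median centring (limma adjusted p = 0.0227 and 0.0269). Median centring, which used only probe sets past the dim level, also moved the median of all genes to -0.14. Which scaling is right was not tested.

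**Figure D2:**
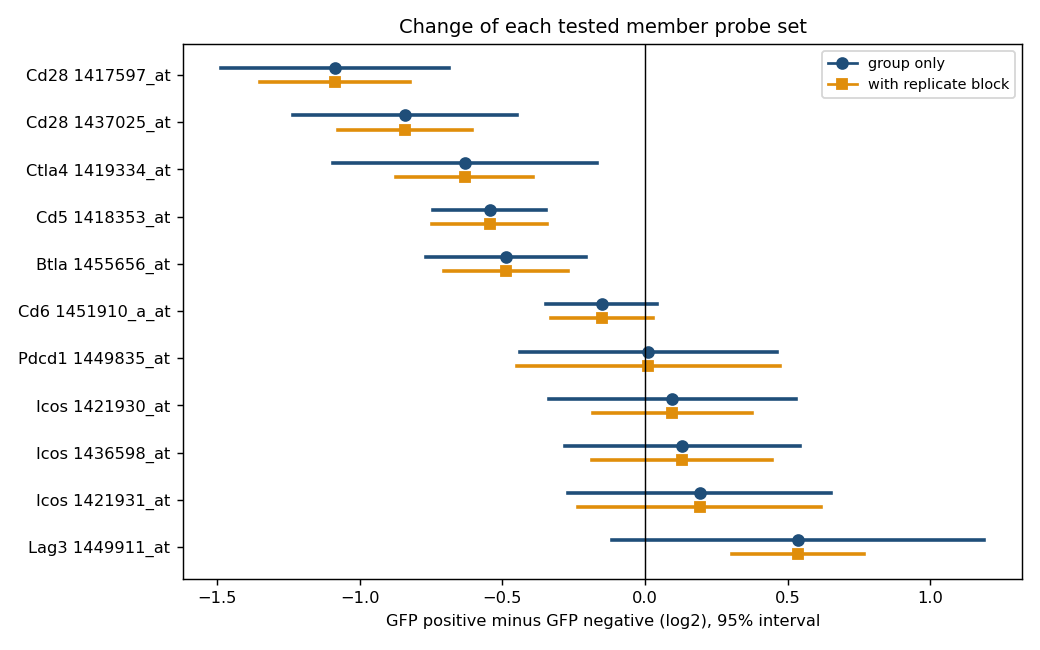
Change of the 11 tested member probe sets, GFP positive minus GFP negative on the log2 scale (x axis), with 95% intervals from limma, fitted on group only (blue circles) and with the replicate number as a block (orange squares). The intervals of both Cd28 probe sets, Ctla4, Cd5 and Btla lie below 0 in both fits, and that of Lag3 lies above 0 only with the block.

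The groups did not overlap in 4 of the 8 tested genes, in each with GFP positive below, and did so with GFP positive above in 0. Over all genes tested, 24.2% were apart with GFP positive below and 29.7% with GFP positive above. By replicate number, 6 of the 11 tested probe sets were lower in all 3 pairs and 1 was higher in all 3, against 31% and 32.1% of all 27022 probe sets tested. The 6 were those of Cd28, Ctla4, Btla, Cd5 and Cd6, and the 1 was that of Lag3. Havcr2, not tested, was lower in all 3 pairs too.

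**Figure D3:**
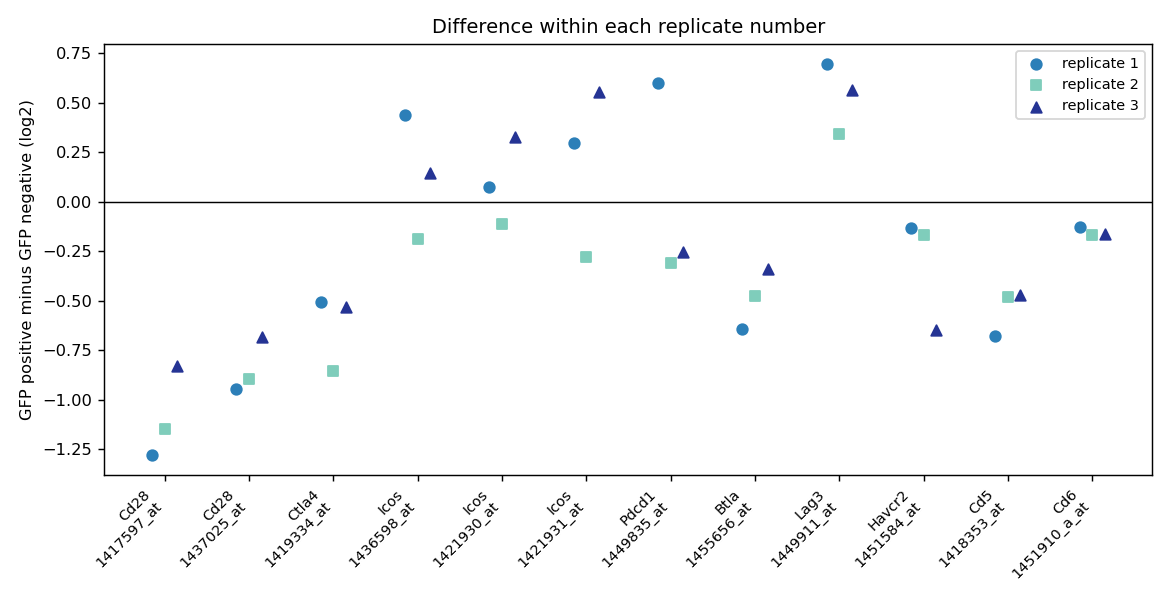
Difference between the GFP positive and the GFP negative sample of the same replicate number (y axis, log2) for each of the 12 member probe sets (x axis), with a symbol per number. For Cd28 on its brighter probe set the differences are -1.28, -1.15 and -0.83, for Icos on its brightest they are 0.44, -0.19 and 0.14, and for Pdcd1 they are 0.60, -0.31 and -0.25.

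Cd28, Ctla4 and Icos stand next to each other on chromosome 1, in that order among protein-coding genes. Whether they changed unequally was tested on the difference of their log2 signals within each array, for 4 pairs of neighbouring genes with p-values adjusted over the 4. The pairs were chosen after the values were seen. Relative to Icos, Cd28 was lower by 1.22 in GFP positive cells, and the 3 GFP positive differences (-1.439 to -1.004) lay below the 3 GFP negative ones (-0.08 to 0.28). This gave an exact two-sided permutation p of 0.1, the smallest that 3 samples against 3 can give, and an adjusted p of 0.133. Relative to Icos, Ctla4 changed by -0.76, with differences from -0.16 to 0.17 in GFP positive samples and from 0.51 to 1.01 in GFP negative samples (exact permutation p = 0.1). Cd5 changed by -0.39 relative to Cd6, again without overlap (exact permutation p = 0.1). Cd28 changed by -0.45 relative to Ctla4, with overlapping groups (exact permutation p = 0.2). With 3 samples against 3 this permutation test cannot reach a p under 0.05, and no other test of these differences was run.

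Samples of 1 group differed in the same direction across many of these genes. GFP negative 2 was the highest of its group on 9 of the 11 tested probe sets, against 37.1% of all probe sets tested. GFP negative 1 was the lowest of its group on 8, against 39.7%, and GFP positive 1 the lowest of its group on 8, against 39.6%. The 11 include several probe sets of Cd28 and of Icos, which are not independent. The 3 genes whose signal over the 6 samples was most like that of Cd28 were Tmem183a, Hspa9 and Cnksr3, with Pearson correlations of 0.998, 0.997 and 0.996. These describe 6 samples in 2 groups and carry no test.

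**Figure D4:**
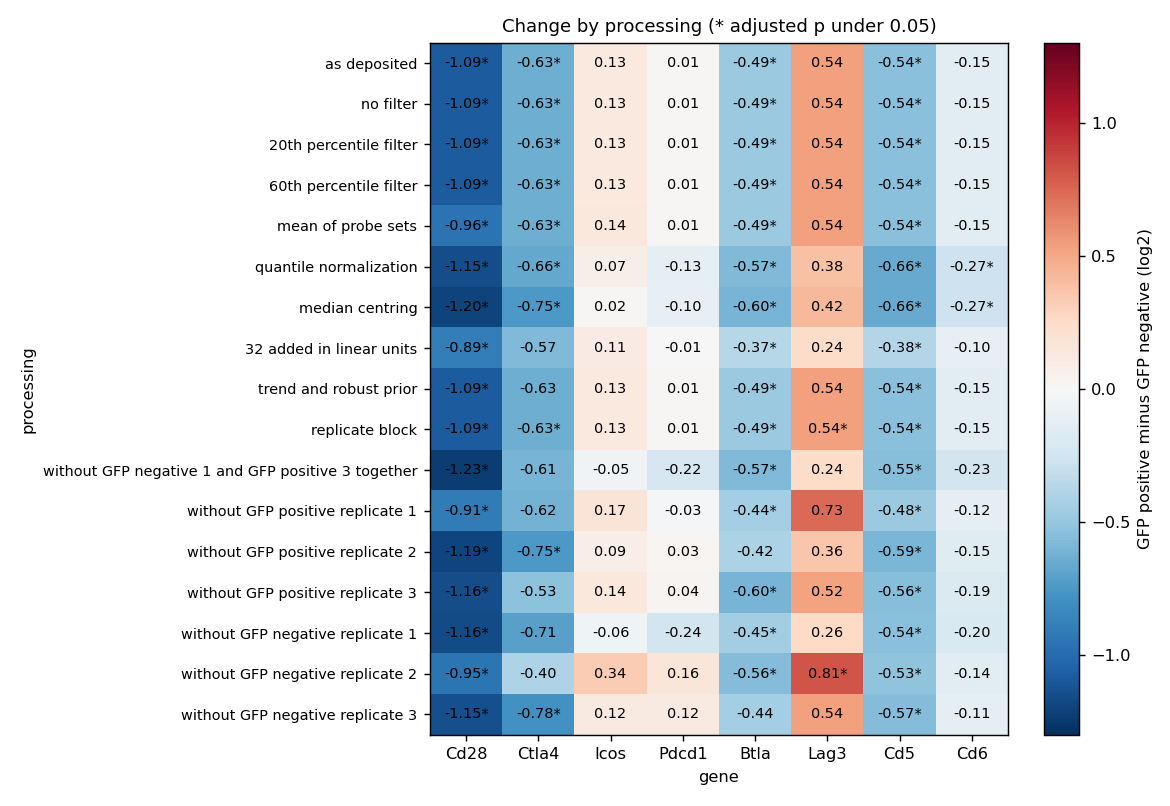
Change of the 8 tested genes (columns) under each processing (rows), GFP positive minus GFP negative on the log2 scale, by colour and printed value, with an asterisk where the adjusted p from limma was under 0.05. Cd28 and Cd5 carry the asterisk in every row, Ctla4 and Btla in part of them, Lag3 with the replicate block and without GFP negative 2, and Cd6 after quantile normalization and median centring.

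The ligands of these receptors moved in both directions. The list of 16 also holds the ligand of the related receptor CD200R1. Of the 16, 14 were tested, of which 6 rose, 2 fell and 6 did not pass, with a median change of -0.01. Pvr, which encodes the CD155 ligand of TIGIT, read 6.58 ± 0.12 in GFP positive cells and 5.20 ± 0.13 in GFP negative cells (SD, n = 3 each), 2.60-fold higher (limma adjusted p = 8e-05). Its other probe sets changed by 0.02 to 1.24. Both ligands of PD-1 rose, Cd274 (PD-L1) by 0.93 ± 0.15 and Pdcd1lg2 (PD-L2) by 1.17 ± 0.13 (SE, limma adjusted p = 0.00195 and 0.000333). Lgals9, which encodes galectin-9, a ligand of TIM-3, was 2.45-fold higher (limma adjusted p = 9.9e-05). Cd86, the CD28 and CTLA-4 ligand, rose by 0.77 and Tnfrsf14, which encodes HVEM, by 0.32. Lgals3, which encodes galectin-3, a ligand of LAG-3, was 11.0-fold lower. With 32 added in linear units the change of Lgals3 was -2.43 and that of Lgals9 0.92, while those of Pvr, Cd274, Pdcd1lg2, Cd86 and Tnfrsf14 were 0.89, 0.37, 0.33, 0.12 and 0.03. Cd86 lost its call in 6 of 16 alternatives, among them 4 of the 6 that leave out 1 sample. Tnfrsf14 lost its call in 11 of 15, among them 5 of those 6, and was 0.21 without GFP negative 3. Ceacam1, a ligand of TIM-3, changed by -0.47 and lost its call in 7 of 16, with -0.30 without GFP positive 3.

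Related receptors that share ligands or function with these receptors also split. Of 10 listed, 6 were tested, of which 3 rose, 2 fell and 1 did not pass. Cd96, a receptor of CD155, was 2.19-fold lower, at 4.86 ± 0.33 in GFP positive cells and 6.00 ± 0.12 in GFP negative cells (SD, n = 3 each, limma adjusted p = 0.000956). Cd226 (DNAM-1), the activating receptor of CD155, rose by 0.50 and had a dim signal. Cd160, which shares HVEM with BTLA, was 1.54-fold lower (limma adjusted p = 0.0067). Its other probe sets changed by -0.57 to -0.04. Cd200r1 and Vsir (VISTA) rose by 0.90 and 0.33. With 32 added in linear units Cd96 changed by -0.64, and Cd226 and Cd200r1, at 0.07 and 0.11, were no longer called. Vsir lost its call in 8 of 16 alternatives, among them quantile normalization (0.22), median centring (0.21) and 5 of the 6 that leave out 1 sample.

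Signalling partners were measured in the same fit. Of 15 tested kinases and adaptors, 5 rose, 2 fell and 8 did not pass, with a median change of 0.18. The adaptor genes Lax1, Lat and Grap2 rose by 0.91, 0.56 and 0.55 (for Grap2 0.34, not called, with its probe sets averaged), Bag6, whose product binds the tail of TIM-3, by 0.52, and the kinase gene Zap70 fell by 0.50. On the scale with 32 added, Lax1 changed by 0.20. Phosphatases, ubiquitin ligases and other proteins that limit the signal gave 8 rises, 1 fall and 6 genes that did not pass among 15, with a median of 0.27. Among them Pag1, an anchor for the inhibitory kinase CSK, rose by 0.99, the adaptor gene Dok1 by 0.75, Inpp5d (SHIP-1) by 0.66, Cbl by 0.57 and Cblb, the ubiquitin ligase that sets the need for CD28 signals, by 0.52. Both other Cblb probe sets rose, by 0.64 and 1.41, whereas those of Pag1 ranged from -0.11 to 0.72. Ptpn11 (SHP-2), a phosphatase recruited by inhibitory receptors, rose by 0.27 but lost its call in 8 of 16 alternatives, among them quantile normalization (0.21), median centring (0.16), averaging of its probe sets (0.15) and 4 of the 6 that leave out 1 sample.

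Of 9 genes that act on the RNA, shedding or traffic of these receptors or their ligands, 5 rose, 0 fell and 4 did not pass. Adam10 and Adam17, the proteases that shed LAG-3, rose by 0.37 and 0.46, and Rc3h2, a paralog of the repressor of Icos mRNA Rc3h1, by 0.41. When the probe sets of a gene were averaged these were 0.04, 0.22 and 0.21, and none was called. Def6 rose by 0.83. Of 14 transcription factors tied to checkpoint genes, 5 rose, 4 fell and 5 did not pass, with a median of -0.07. The largest changes were those of Maf, at 3.29, and of Eomes, a T-box factor of effector and memory cells, at -2.28. Maf read 4.71 ± 0.31 in GFP positive cells and 1.42 ± 0.24 in GFP negative cells (SD, n = 3 each), a value near the dim level. Its change was 0.75 with 32 added in linear units, and its other probe sets changed by -0.03 to 1.62. Ikzf2 (Helios) rose by 1.88 and Batf, an AP-1 family factor, fell by 1.55. The other probe sets of Eomes and Ikzf2 changed by -2.36 and 1.66. Tox, which sustains PD-1 expression in exhausted cells, was 2.05-fold higher on a probe set with a low signal, with other probe sets at 0.66 to 1.33 and a change of 0.38 with 32 added. Nr4a1 and Nr4a3, early targets of receptor signals, changed by -1.19 and -1.41 (-0.40 each with 32 added), and the other Nr4a3 probe set by -0.10. Nfatc2 rose by 0.73 on its brightest probe set, but its other probe sets ranged from -0.70 to 0.16.

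**Figure D5:**
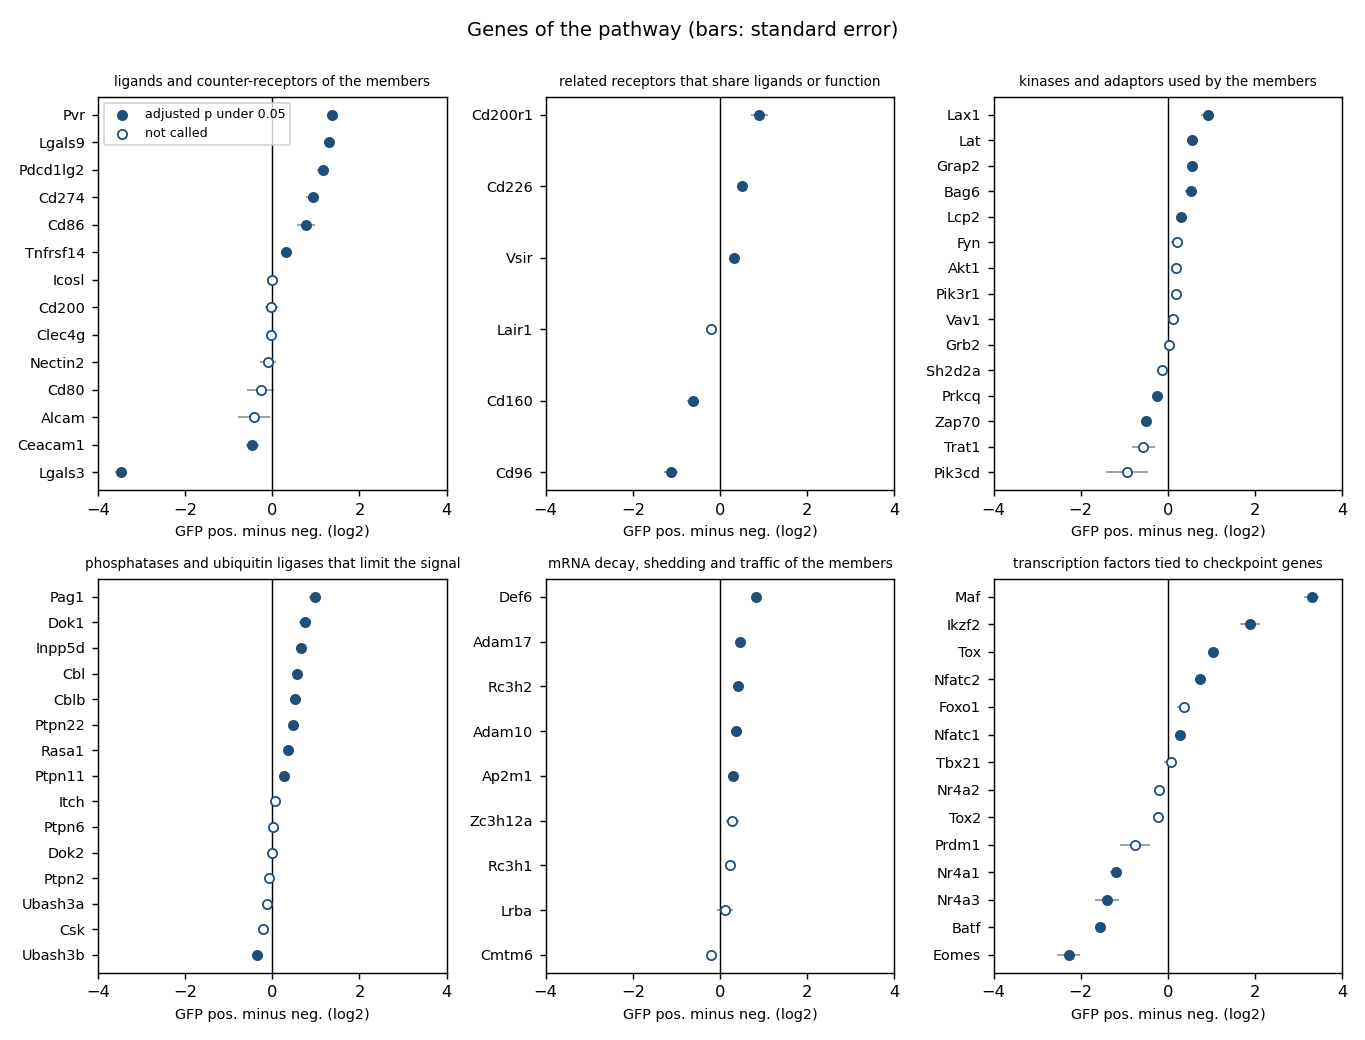
Change of each tested gene of the 6 pathway lists, GFP positive minus GFP negative on the log2 scale (x axis), with bars for the standard error. Filled points have an adjusted p under 0.05 from limma and open points do not. Lgals3, at -3.46, and Maf, at 3.29, lie farthest from 0.

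Over the 6 lists, 73 of 82 genes were tested, of which 32 rose (43.8%) and 11 fell (15.1%), against 24.6% and 17.5% of all genes tested. The lists were chosen with earlier results of these data known, so these shares are not independent of the data. After median centring 26 of the list genes rose and 16 fell. Of the 43 called genes 24 had another probe set past the dim level, and in 18 of these all other probe sets changed in the same direction.

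The label of cytotoxic T cells was checked against markers. Of 7 T cell markers 5 rose, 0 fell and 2 did not pass, with a median change of 0.57. Cd8a, which encodes the CD8 alpha chain, was 2.37-fold higher (limma adjusted p = 0.000331). The summed linear signal of the T cell markers was 8065 to 9138 in GFP positive samples and 5528 to 6700 in GFP negative samples. Ctla4 and Icos are also expressed by regulatory T cells, Btla by B cells and Cd5 by some B cells. Foxp3, the defining gene of regulatory T cells, averaged 0.75 in GFP positive and 1.19 in GFP negative cells, under the dim level, and Cd4 changed by -0.05. Of 4 tested helper and regulatory T cell markers 2 rose, Ikzf4 by 0.96 and Zbtb7b by 0.42 (limma adjusted p = 0.000786 and 0.0196). The summed linear signal of this list was 72.3 to 90.1 in GFP positive samples, against 48.9 to 55.2 in GFP negative samples. Ikzf4, at 5.83 in GFP positive and 4.87 in GFP negative cells, was its brightest gene and made up most of that sum. Of 4 tested B cell markers 0 were called, with sums of 32.5 to 38.7 in GFP positive samples and 33.7 to 45.1 in GFP negative samples. Macrophage markers gave 1 rise of 4 tested, with sums of 24.9 to 26.3 in GFP positive samples and 22.2 to 25.3 in GFP negative samples. Dendritic cell markers gave 3 falls of 5 tested, and their sum was 17.6 to 20.4 in GFP positive samples, against 22.7 to 23.0 in GFP negative samples. Of 2 tested NK cell markers 1 fell, with sums of 10.3 to 10.9 in GFP positive samples and 12.6 to 14.9 in GFP negative samples, and Ncr1 was near background in both groups. Of 2 tested erythroid markers 1 fell, with sums of 13.5 to 14.3 in GFP positive samples and 16.8 to 17.98 in GFP negative samples. The tested dendritic cell, NK cell and erythroid markers had low signals, most of them not far above the dim level of 1.27. Their sums hold much signal near background, and whether GFP negative samples held more such cells was not tested. The part of the cell types listed here in the changes of the receptors was not tested.

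As a check of the labels, Hdac7 read 8.15 ± 0.05 in GFP positive cells and 4.83 ± 0.03 in GFP negative cells (SD, n = 3 each, limma adjusted p = 9.7e-07) on 1 of its 2 probe sets. The other probe set went the opposite way, with a mean of 6.19 in GFP positive cells and 6.74 in GFP negative cells, a change of -0.55 (limma adjusted p = 0.00221), and which part of the transcript each probe set reads was not analysed here. The average of both changed by 1.38. Median log2 signal per array, over all probe sets that are not controls, was 1.62 to 1.66 in GFP positive samples and 1.69 to 1.72 in GFP negative samples. GFP positive 3 had the highest spiked BioB control, at 6.03 against 5.40 to 5.68 in the other samples, and GFP negative 1 had the highest signal of an 18S ribosomal RNA control, at 11.02 against 8.98 to 10.20. Without both of these samples Cd28, Btla and Cd5 were lower by limma, with changes of -1.23, -0.57 and -0.55, and Ctla4 changed by -0.61 (adjusted p = 0.1496).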

How the data were processed

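Each of 6 sorted samples was hybridised to an Affymetrix array, per the labels. The authors deposited a log2 signal for each of 45101 probe sets, a unit read from the range of the table. Affymetrix Expression Console is the tool in the submitters' processing notes. The sources used here do not give the summarisation, background correction or normalization, and the effect of these steps on fold sizes was not tested. No detection calls were used.

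The deposited log2 values were used unchanged. Of 45037 probe sets that are not controls, 34945 carry 1 symbol, 932 several and 9160 were not listed; only those with 1 symbol name a gene, by the array annotation, and 0 symbols were updated from RefSeq. Each of 18193 genes was read from its probe set with the highest mean. Genes under the 40th percentile of mean signal (1.27) were left out. GFP positive was compared with GFP negative by limma (version 3.58.1, under R 4.3.3, moderated and two-sided, Benjamini-Hochberg over 13194 genes, threshold 0.05). Probe sets that do not represent their gene were read from the same fit over 27022 probe sets. The procedure was tested on simulated data. Precision is limited by having 3 arrays a group.

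The members, lists and tests were chosen with earlier results of these data known. All 10 members are named. Of the lists, only called genes are named, with the largest changes of each list among them, and not all of them. Genes not called are given as counts. The 4 pairs of members were chosen after their values were seen, as was Cd4 among the markers. Likeness to Cd28 was taken over the 6 samples.

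Groups share replicate numbers 1 to 3 in the labels. The labels call them biological replicas and do not say whether a number marks a shared culture. Deviations from the group mean correlated between samples of the same number, at 0.47, 0.35 and 0.25 over genes, and so the blocked fit is given where it changes a call. Alternatives were other dim filters, averaged probe sets, quantile normalization, median centring, 32 added in linear units, a trend and robust prior, the replicate block and leaving out samples. Median centring set each array to a common median of the probe sets past the dim level that are not controls.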

Additional observations from a re-analysis of the deposited data

How the results depend on the processing

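Cd28 and Cd5 kept direction and call in all 16 alternatives. Of the 8 tested genes 3 to 5 were lower, 3 without any 1 sample, and the median change of these genes was -0.43 to -0.23. The pairing by replicate number (replicate block) raised the count of members called higher from 0 to 1, both over genes and over probe sets, through Lag3. It changed no other call of a member. Leaving out 1 sample gave 0 to 1 members higher, 3 to 4 member probe sets lower instead of 5, 1594 to 2433 genes lower and 2621 to 3171 genes higher. Over all genes 2309 were lower and 3248 higher. Median centring gave 3819 lower and 2506 higher. Without GFP negative 1 and GFP positive 3 together there were 1251 lower and 2074 higher, and 20 list genes higher instead of 32, with 4 samples in place of 6. Ctla4 lost its call with 32 added in linear units (-0.57, limma adjusted p = 0.0802) and with the trend and robust prior (adjusted p = 0.0769). The cause was not tested.

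Of the genes that were not called, Icos and Pdcd1 changed sign. Icos was -0.0492 without GFP negative 1 and GFP positive 3 together and ran from -0.0582 to 0.335 without 1 sample. Its second probe set read -0.152 without that pair of samples, -0.00326 after quantile normalization and -0.0189 after median centring, and ran from -0.0492 to 0.253 without 1 sample, and the third read -0.0906 without that pair. Pdcd1 was -0.13 after quantile normalization, -0.10 after median centring, -0.00546 with 32 added and -0.22 without GFP negative 1 and GFP positive 3 together, and ran from -0.241 to 0.156 without 1 sample. For the 43 called list genes, 599 of 685 alternatives kept the call, 86 lost it and 0 changed direction. Depth cannot be given for arrays, and the signal of Havcr2 was near background.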
